A study of Mus musculus with 8 samples.

Results

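The separating regions are accessible regions that ATAC-seq called mostly in lines with nuclear-competent focal adhesion kinase (FAK), or mostly in lines in which FAK is absent or impaired in reaching the nucleus. ATAC-seq marks accessible chromatin, because the Tn5 transposase inserts sequencing adapters where DNA is not covered by nucleosomes. The 4 libraries of the FAK-WT and FAK-kd lines were set against the 4 of the FAK-/- and FAK-nls lines. In each library the 24383 strongest peaks by −log10 p were used, a number set by the smallest list. Merging the peaks that overlapped among the 8 libraries gave 40309 regions. A region was a member when at least 3 libraries of one side and at most 1 of the other had a peak in it. The rule gave 2400 regions. Of these, 1261 were called on the side with nuclear-competent FAK (3.13% of all regions) and 1139 on the other side, called the lacking side here (2.83% of all regions). These shares follow from the rule and are given as a description.

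All 4 lines came from mouse cutaneous squamous cell carcinoma (SCC) cells driven by Ha-Ras, taken from tumors that chemical carcinogenesis had induced in K14CreER FAKflox/flox FVB mice. *Ptk2*, the gene for FAK, was deleted in culture with 4-hydroxytamoxifen, and the constructs were introduced by retrovirus into 1 FAK-/- clone, so all groups carry the deletion and the 3 expressing lines carry a vector that the FAK-/- cells may not. FAK-kd carries the kinase-dead change K454R. FAK-nls carries R177A, R178A, R190A, R191A, R216A and R218A in its nuclear localization sequence. Each line gave 2 libraries, described as biological replicates, and the lines are not independent of the construct that each carries. Peaks report calls, not the level of FAK or its place in the cell. *Ptk2* itself had 9 regions in the gene or the 10 kb upstream of it. All 8 libraries had a call in 4 of them and 0 separated the sides, so these calls do not check the deletion.

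FAK is a tyrosine kinase that joins integrin adhesions to the signaling machinery of the cell. It also enters the nucleus, where it can act as a scaffold for transcription factors and other regulators without binding DNA itself. Kinase-dead FAK keeps the scaffold and the nuclear localization sequence, whereas FAK-nls keeps the kinase, so the comparison pools lines by nuclear entry and not by kinase activity. Regions far from promoters often act as enhancers and in epithelial tumor cells commonly hold sites for AP-1, the Fos and Jun dimers.

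The 8 libraries had between 24383 and 53703 peaks on chromosomes 1 to 19, X and Y, and the weakest peak used had a −log10 p between 3.36 in FAK-nls replicate 1 and 8.10 in FAK-WT replicate 1. Read numbers were not used here. Both FAK-nls lists were nearly exhausted at this number (100% and 97.7% of their peaks used), against 45.4% in FAK-WT replicate 1. In the 7 libraries with further peaks, the first peak left out had a −log10 p at most 0.00047 below that of the last one used. At the equal number, 2 of 10 promoters of keratinocyte genes were called in all 8 libraries (*Tfap2a* and *Itga6*) and 7 in none, among them those of the basal keratins *Krt5* and *Krt14*, of *Trp63* and of *Cdh1*. Of 6 fibroblast genes, the *Col1a2* promoter was called in all 8 libraries, the *Pdgfra* promoter in 7, that of *Col1a1* in 3, that of *Thy1* in 1 and those of *Dcn* and *Lum* in 0. Promoters of 0 of 5 immune and 0 of 4 endothelial genes were called in all 8. No marker promoter was itself a separating region, and the part of cell state in the results was not tested.

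Among the strictest members of the nuclear-competent side, called in its 4 libraries and 0 of the others, the 10 strongest by rank lay in introns and between genes. Stretches of 2 of these and of a promoter member of lower rank, at *Cxcl10*, are shown because AP-1 letters are a feature compared between the directions. Each stretch was read from the reference genome GRCm38.p6, lies in a region of the given direction and overlaps no annotated exon. The stretch of *Pappa*, the gene of a protease that cleaves IGF-binding proteins, is from an intron (chr4:65254255-65254405, plus strand). The stretch of *Sntg1*, a syntrophin gene, is also intronic (chr1:9145597-9145747, plus strand). The stretch of *Cxcl10*, a chemokine that attracts T cells, ends at the base before the annotated start of the gene (chr5:92348890-92349129, minus strand). Capitals mark the AP-1 letters TGACTCA or TGAGTCA and the ETS letters AGGAAGT or CGGAAGT, searched on both strands.
Pappa: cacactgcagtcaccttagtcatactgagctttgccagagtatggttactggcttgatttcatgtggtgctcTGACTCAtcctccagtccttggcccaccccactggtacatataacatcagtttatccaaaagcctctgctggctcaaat
Sntg1: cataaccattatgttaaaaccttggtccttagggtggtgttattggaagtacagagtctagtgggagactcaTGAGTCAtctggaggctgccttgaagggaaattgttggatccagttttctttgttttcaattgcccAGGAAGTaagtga
Cxcl10: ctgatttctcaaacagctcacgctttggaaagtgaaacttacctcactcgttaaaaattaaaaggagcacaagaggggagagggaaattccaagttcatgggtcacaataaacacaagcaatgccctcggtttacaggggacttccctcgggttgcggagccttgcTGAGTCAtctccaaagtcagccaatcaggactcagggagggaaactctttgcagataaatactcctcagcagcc

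Stretches of 3 regions of the lacking side are given for comparison, chosen from the 10 strongest of the strictest members for their AP-1 letters. *Ano4* encodes a membrane protein of the anoctamin family, *Plxna2* a semaphorin receptor and *Clvs2* a lipid-binding clavesin. The *Ano4* stretch is intronic (chr10:89252691-89252841), the one nearest to *Plxna2* is intergenic (chr1:194089945-194090095) and the *Clvs2* one is intronic (chr10:33558252-33558402), all on the plus strand. The stretch near *Plxna2* held 2 AP-1 matches and each of the other stretches of both directions held 1, which is no finding because stretches with these letters were shown.
Ano4: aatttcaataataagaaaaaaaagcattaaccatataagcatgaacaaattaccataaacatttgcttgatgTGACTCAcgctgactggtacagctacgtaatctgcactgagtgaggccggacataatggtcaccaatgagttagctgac
Plxna2: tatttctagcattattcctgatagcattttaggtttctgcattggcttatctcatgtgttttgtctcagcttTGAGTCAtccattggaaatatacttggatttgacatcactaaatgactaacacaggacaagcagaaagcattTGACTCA
Clvs2: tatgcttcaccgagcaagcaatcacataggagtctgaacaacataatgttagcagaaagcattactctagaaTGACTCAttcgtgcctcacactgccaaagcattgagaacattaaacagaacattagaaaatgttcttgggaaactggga

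The first question was whether nuclear competence divides the libraries more than other divisions do. The 8 libraries can be divided into 4 and 4 in 35 ways, and the same rule was applied to each. The 2400 separating regions were the 9th largest number of the 35 (exact permutation test, p = 0.257, the smallest possible p being 0.0286). The other divisions had 2104 regions on average, with a range from 1437 to 2909, so the number was 1.14 times their mean. Of the 3 divisions that keep both libraries of each line together, this one had the smallest number. FAK-WT with FAK-/- against FAK-kd with FAK-nls gave 2909 regions, the largest of all 35, and FAK-WT with FAK-nls against FAK-/- with FAK-kd gave 2611. With 3 such divisions no p under 1 in 3 is possible. By the number of called regions, the nuclear division lay within the range of the others.

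**Figure D1:**
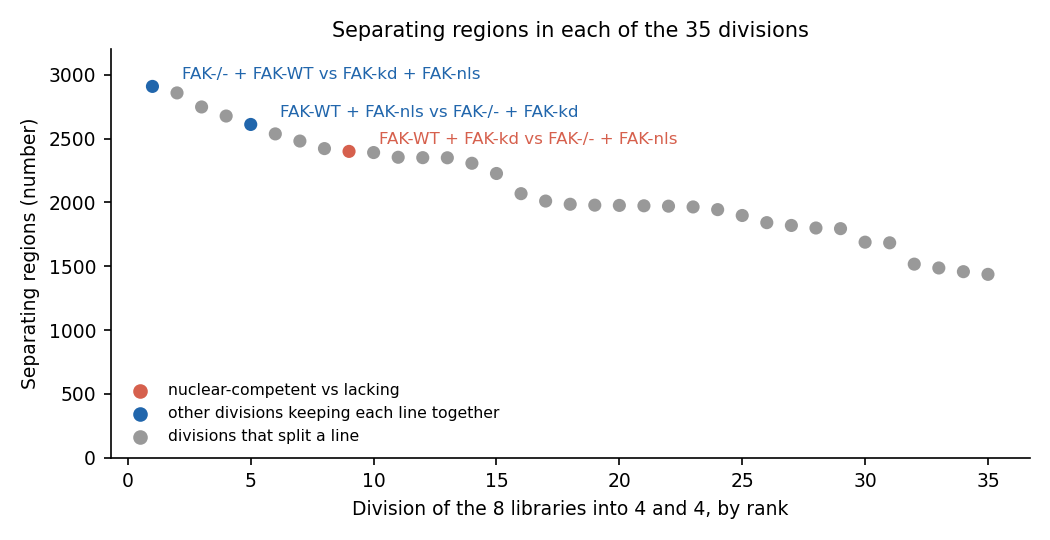
Number of separating regions (vertical axis) in each of the 35 divisions of the 8 libraries into 4 and 4, ordered from the largest (horizontal axis). The red point is nuclear-competent FAK against lines lacking it, with 2400 regions at rank 9, and the 2 blue points are the other divisions that keep each line together, at 2909 and 2611.

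The strictest members stood somewhat further out. In 91 regions the 4 nuclear-competent libraries had a call and the others had 0, and in 85 regions the reverse held. The sum of 176 was the 3rd largest of the 35 divisions and 2.37 times the mean of the others (exact permutation test, p = 0.0857). It ranked 2nd of the 3 divisions that keep lines together, after 220 regions for FAK-WT with FAK-/- against FAK-kd with FAK-nls. FAK-WT with FAK-nls against FAK-/- with FAK-kd gave 155. All other divisions split a line, and the part of this in the rank was not tested. The remaining members had 1 missing call, 1 call on the opposite side, or both. On the nuclear-competent side these were 321 regions called in 3 and 0 libraries, 587 in 3 and 1, and 262 in 4 and 1. On the lacking side they were 291, 557 and 206 regions. A further 3148 regions were 1 call short of nuclear-competent membership and 2807 were 1 call short of lacking-side membership.

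Outside FAK-nls, most regions without a call still held a peak of lower rank. When the full deposited lists were searched at the 1261 nuclear-competent regions, FAK-/- replicate 1 had a peak in 1082 (85.8%) and FAK-/- replicate 2 in 798 (63.3%), although only 282 and 232 of these were among the strongest 24383. FAK-nls replicates 1 and 2 had a peak in 169 (13.4%) and 196 (15.5%), but their lists held few peaks below the equal number, so a missing FAK-nls peak carries less information than a missing FAK-/- peak. In 83 nuclear-competent regions (6.58%) none of the 4 libraries of the other side had any deposited peak. At the 1139 lacking-side regions, FAK-WT replicate 1 had a peak in 1073 (94.2%), FAK-WT replicate 2 in 891 (78.2%), FAK-kd replicate 1 in 805 (70.7%) and FAK-kd replicate 2 in 1012 (88.8%). Only 12 lacking-side regions (1.05%) had no deposited peak in the 4 nuclear-competent libraries. In FAK-WT, FAK-kd and FAK-/- libraries, most members were thus set apart by the rank of a peak within its library and not by its presence, which the short FAK-nls lists cannot show.

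**Figure D2:**
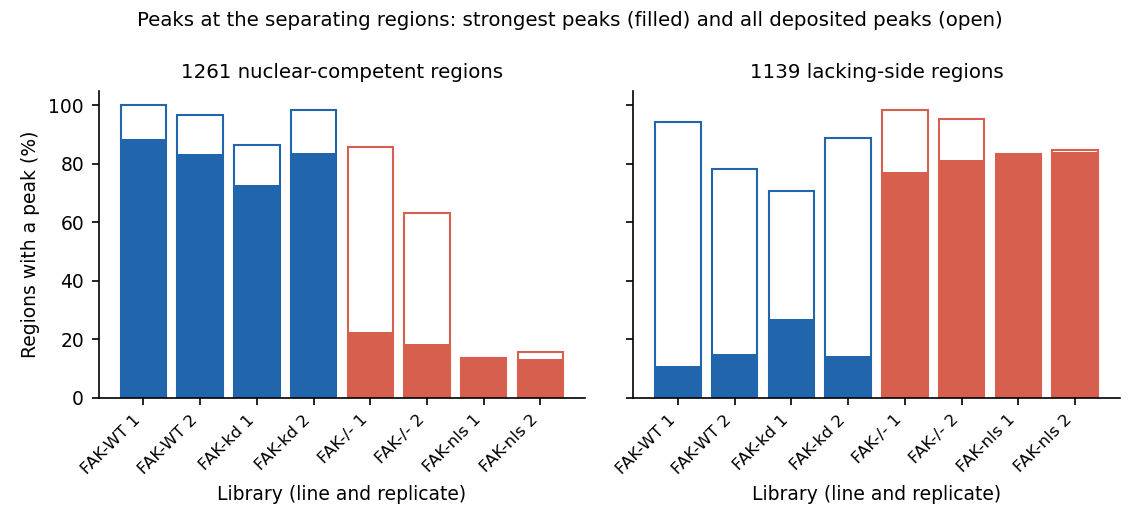
Percent of the 1261 nuclear-competent regions (left) and of the 1139 lacking-side regions (right) that hold a peak in each library, blue for nuclear-competent lines and red for the others. Filled bars count the 24383 strongest peaks and open bars all deposited peaks, which reach 85.8% of nuclear-competent regions in FAK-/- replicate 1 and 13.4% in FAK-nls replicate 1.

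The strongest nuclear-competent member was a *Pappa* intron (chr4:65253857-65254685). Its −log10 p was 23.0 and 19.01 in the FAK-WT libraries and 12.8 and 14.7 in the FAK-kd libraries, and no deposited list of FAK-/- or FAK-nls held a peak there. In each of the 4 calling libraries it ranked among the strongest 5651 peaks, far above the ranks near 24383 at which membership is decided. Regions were ordered by the worst rank that any calling library gave them, and the median of this rank over the 91 strictest nuclear-competent members was 22272. The *Pappa* region held the AP-1 letters shown above.

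A cluster of nuclear-competent regions lay between *Ktn1*, the kinectin gene, and *Peli2*, which encodes a ubiquitin ligase of Toll-like receptor signaling. It held 4 members in 119 kb of chromosome 14 (chr14:47868327-47986956), of 6 regions there, and 3 of the 4 were called in all 4 nuclear-competent libraries and 0 others. The strongest of them (chr14:47937239-47937732), nearest to *Peli2*, had a −log10 p of 12.3 and 8.64 in FAK-WT, 10.1 and 12.1 in FAK-kd, and no peak in the other 4 lists. A second one (chr14:47944593-47945080) had 10.6 and 8.45 in FAK-WT and 7.32 and 14.4 in FAK-kd, against 4.47 and 4.33 in the FAK-/- lists and no peak in FAK-nls.

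Other strict members among the 10 strongest lay in introns of *Rbfox1*, a splicing regulator, of *Rimbp2*, a presynaptic scaffold gene, and of *Fbxl2*, which encodes a subunit of a ubiquitin ligase. The *Rbfox1* region (chr16:6963346-6964159) had a −log10 p of 11.0 and 9.88 in FAK-WT, 8.81 and 15.4 in FAK-kd, 5.85 in FAK-/- replicate 1 and no peak elsewhere. The *Sntg1* region (chr1:9145371-9146085) had 11.6 and 7.22 in FAK-WT, 8.83 and 15.7 in FAK-kd, and 5.78 and 5.06 in FAK-/-, with none in FAK-nls. An intergenic region 181300 bp from the start of *Bmp7*, a growth factor gene (chr2:172758498-172759087), had 11.9 and 7.24 in FAK-WT, 7.41 and 9.96 in FAK-kd, and 5.39 in FAK-/- replicate 1 alone of the other side. The sides did not overlap at these 3, but the rule ranked these same values, so this is a description. At the *Fbxl2* region (chr9:114011037-114011554) none of the FAK-/- and FAK-nls lists held a peak, whereas the nuclear-competent libraries ranged from 6.29 to 13.8.

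By worst rank, the strongest lacking-side member called in 4 libraries and 0 of the other side stood below the *Pappa* region. It lay in an *Ano4* intron 4326 bp from the start of the gene (chr10:89252440-89253181) and had a −log10 p of 10.3 and 11.0 in FAK-/- and 10.4 and 10.53 in FAK-nls. It also had weaker peaks of 5.68 and 5.32 in the FAK-WT lists and none in the FAK-kd lists. The values of the calling libraries agreed closely here. Its worst rank was 10200, against 5651 for the *Pappa* region. In the FAK-nls libraries it ranked 2191 and 2539, ahead of the *Pappa* region in FAK-kd at 3228 and 5651. *Barx2*, a homeobox gene, had an upstream region (chr9:31971823-31972661) with 10.2 and 8.34 in FAK-/- and 5.74 and 8.47 in FAK-nls. At the *Barx2* region FAK-WT replicate 1 had a peak of 8.09, above the FAK-nls replicate 1 value, so its call rests on rank within each library and the raw values overlap.

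**Figure D3:**
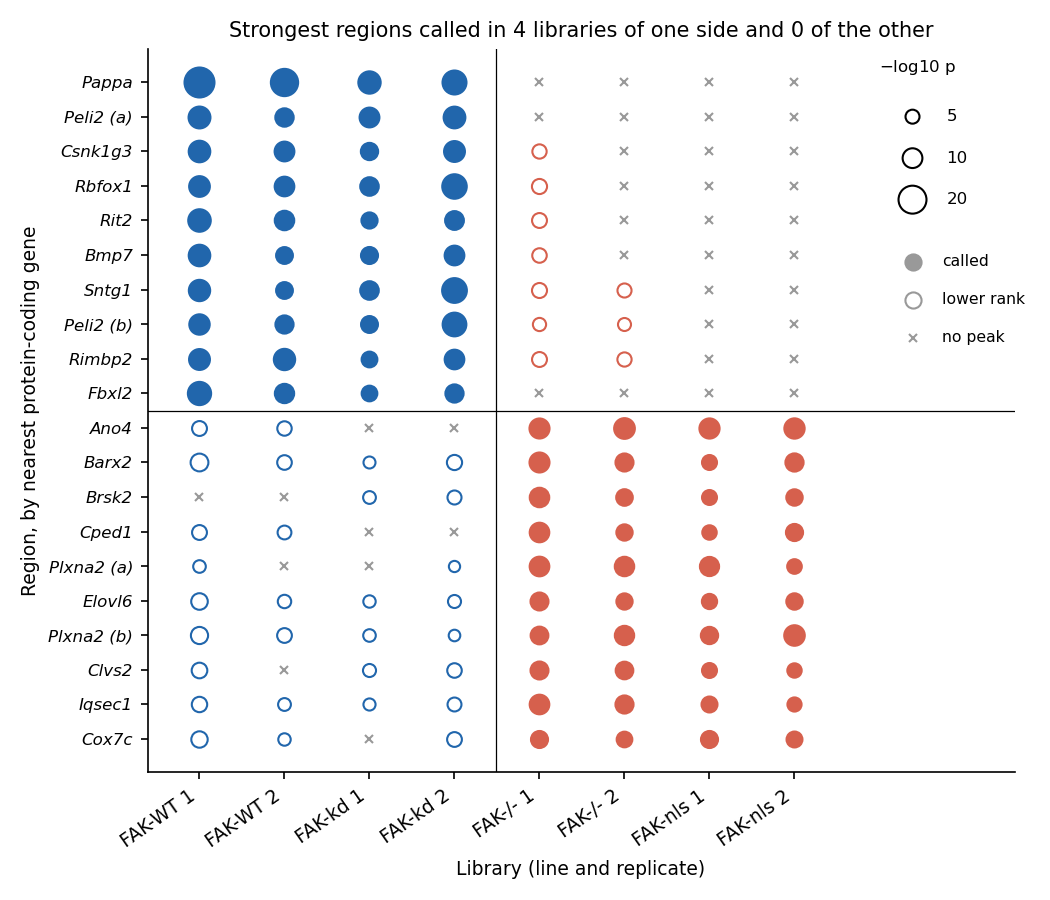
The −log10 p of the 10 strongest regions of each direction among those called in 4 libraries of one side and 0 of the other (rows, by nearest protein-coding gene, with a and b for a pair of regions of the same gene) in each library (columns). Circle area is proportional to −log10 p, filled circles are among the 24383 strongest peaks, open circles are deposited peaks of lower rank and crosses mark no peak. The *Pappa*, first *Peli2* and *Fbxl2* rows have crosses in all 4 libraries of the other side, and each of the 10 lacking-side rows has at least 2 open circles among the nuclear-competent libraries.

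Promoters were a minority of the strictest members. Of the 91 nuclear-competent ones, 11 overlapped a promoter of a protein-coding gene (from 500 bp before to 2000 bp after a start), and of the 85 lacking-side ones 16 did. On the nuclear-competent side they included *Thrb*, the thyroid hormone receptor beta, and *Tenm4*, a teneurin adhesion molecule. The *Thrb* region (chr14:17660298-17661263) had a −log10 p of 16.7 and 8.70 in FAK-WT and 6.23 and 6.76 in FAK-kd, and the *Tenm4* region (chr7:96521927-96522579) had 8.90 and 6.69 in FAK-WT and 4.98 and 7.30 in FAK-kd. Both had no deposited peak on the other side. *Tenm4* held 5 nuclear-competent members among its 19 regions and 0 of the other direction, as did *Sox5*, a transcription factor gene, with 5 of 26. Both genes were picked for their number of members. Over all regions 3.13% were nuclear-competent and 2.83% lacking-side members. The promoter of *Amot*, whose product binds and restrains YAP (chrX:145461183-145461827), had 9.95 and 6.30 in FAK-WT and 6.23 and 9.34 in FAK-kd, against 5.93 in FAK-/- replicate 1. The promoter of *Arhgef2*, a microtubule-bound activator of RhoA (chr3:88607425-88607937), had 12.9 and 6.14 in FAK-WT, 6.10 and 6.82 in FAK-kd and 5.92 in FAK-/- replicate 1. Others among the 10 strongest were promoters of *Rabepk*, *Tmem184b*, *Ahdc1*, *Csgalnact1* and of *F8* with *Fundc2*.

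Among the strictest lacking-side members the promoter of *Brsk2*, a kinase of neuronal polarity, was the strongest promoter (chr7:141949302-141950294). Its −log10 p was 9.74 and 7.05 in FAK-/- and 5.73 and 6.89 in FAK-nls, against no peak in FAK-WT and 4.18 and 5.03 in FAK-kd. At *Iqsec1*, an activator of Arf GTPases that takes part in integrin traffic (chr6:90987958-90989314), the values were 9.87 and 8.39 in FAK-/- and 6.52 and 5.13 in FAK-nls, against 6.06 and 4.21 in FAK-WT and 3.76 and 4.96 in FAK-kd. The FAK-WT replicate 1 value at *Iqsec1* lay above that of FAK-nls replicate 2. The promoter of *Met*, the receptor of hepatocyte growth factor (chr6:17490535-17491315), had 6.86 and 6.20 in FAK-/-, 5.77 and 5.55 in FAK-nls, 5.47 and 3.43 in FAK-WT and 3.97 and 5.04 in FAK-kd. The groups did not overlap at *Met* but lay within 0.1 of each other at their nearest values. *Mark4*, *Tmem242*, *Wdr26*, *Pspc1*, *Bdh1*, *Pcdh20* and *Akr1c18* were the others among the 10 strongest of these promoters, and all of them had deposited peaks below the equal number in at least 2 nuclear-competent libraries. The raw values overlap at several of them, such as *Wdr26*, where FAK-WT replicate 1 had 7.87 and the calling libraries 4.82 to 6.80.

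The directions were next compared for position and sequence, on which the rule does not act directly. Promoters held 18.2% of nuclear-competent and 27.0% of lacking-side members, and both shares were below the 50.9% of the 13172 regions called in all 8 libraries. Among 5910 other regions called in 3 to 5 libraries the share was 25.5%. This difference was matched or exceeded in 22 of the 35 divisions (exact permutation test, two-sided, p = 0.629, adjusted p = 0.804 over 9 features). It turned to 8.98 points with a −log10 q of at least 3 and 7.13 points when a call needed 50% coverage. With one replicate left out it ran from −18.0 points (without FAK-/- replicate 1) to −2.24 (without FAK-WT replicate 1). When peaks were ranked by fold enrichment it was −21.2 points. Nuclear-competent members lay a median of 9576 bp from the nearest start and lacking-side members 7355 bp, and 12.8% and 7.11% lay beyond 50 kb. Introns held 46.7% and 51.0% of them, and exons 10.2% and 14.0%. The other regions called in 3 to 5 libraries lay a median of 7239 bp away, with 8.48% beyond 50 kb. Introns held 48.2% of these other regions and exons 14.4%. Distances and gene parts were not tested.

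AP-1 letters stood in the central 500 bp of 49.9% of nuclear-competent members (629 regions) and 41.3% of lacking-side members (470 regions). The share was 38.9% over all 40309 regions, 34.0% in regions called in all 8 libraries and 43.3% in the other regions called in 3 to 5 libraries. The difference of 8.62 points was within the range of the divisions (exact permutation p = 0.543, adjusted p = 0.804), which reached 20.6 points for FAK-WT with FAK-/- (53.5%) against FAK-kd with FAK-nls (32.9%). The difference turned to −0.77 points with all deposited peaks, −5.26 with a −log10 q of at least 3 and −4.49 when a call needed 50% coverage. With one replicate left out it ran from 1.71 points (without FAK-WT replicate 1) to 16.8 (without FAK-/- replicate 1). It was 16.6 points in members called in 4 and 0 libraries. ETS letters stood in 19.4% and 16.2% (18.1% of all regions, exact permutation p = 0.314, adjusted p = 0.707). In the division by nuclear competence this was the largest ETS difference of the 3 divisions that keep lines together, but 11 of the 35 divisions reached it.

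The cAMP response element TGACGTCA, bound by CREB and ATF proteins, was rare, with 3 nuclear-competent members (0.238%) and 18 lacking-side members (1.58%) against 1.39% of all regions (exact permutation p = 0.143, adjusted p = 0.707). The consensus of CTCF, the insulator protein, matched in 4.52% and 1.67% (3.96% of all regions, exact permutation p = 0.314, adjusted p = 0.707). A half-site of p53 matched in 5.15% and 4.30% (4.00% of all regions, exact permutation p = 0.200, adjusted p = 0.707). The letters GGAATG of TEAD factors, the partners of YAP, stood in 30.7% and 30.6% (exact permutation p = 1, with 27.8% of all regions), and TGTGGTT of RUNX factors in 16.6% and 14.6% (p = 0.657, with 14.0% of all regions). Mean GC content was 48.2% and 49.4% (exact permutation p = 0.714), lower than the 55.4% of regions called in all 8 libraries. None of the 9 features passed the adjustment, and none reached an unadjusted p under 0.05. A match is a description of letters and not of a bound site.

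**Figure D4:**
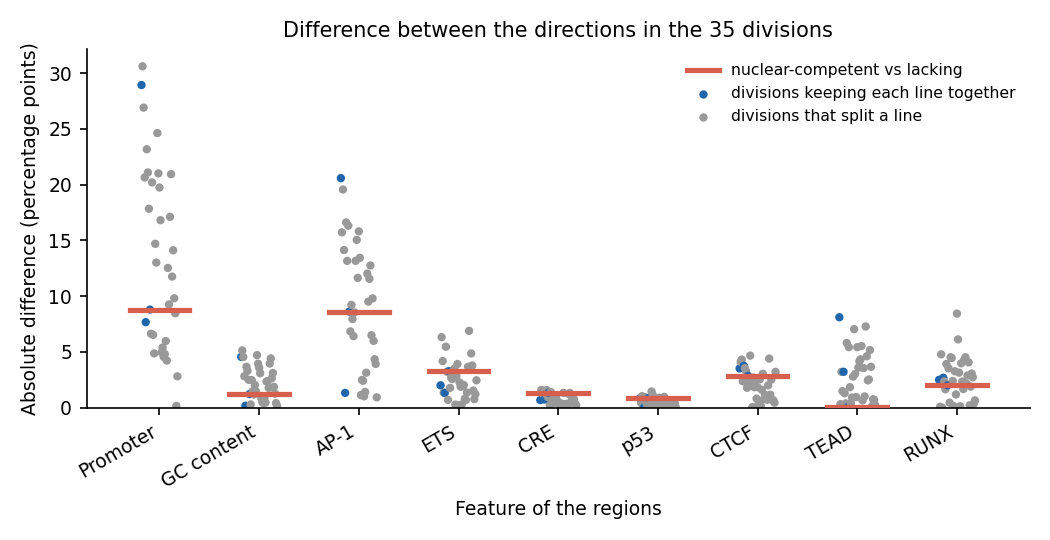
Absolute difference between the directions, in percentage points, of the share at promoters, the mean GC content and the share with each motif. Red bars are nuclear-competent against lacking, blue points the divisions that keep each line together and gray points the other divisions. The red bar lies within the range of the points for 8 features, at 8.62 points for AP-1, and is the smallest of the 35 values for TEAD.

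The directions were spread unevenly over the chromosomes. Chromosome 15 held 84 nuclear-competent and 32 lacking-side members, a ratio of 2.62 against 1.11 over the genome. Chromosomes 10 and 13 held 52 and 42 nuclear-competent but 90 and 80 lacking-side members, ratios of 0.578 and 0.525. Pileup moved with these counts in regions that were called in all 8 libraries and so are not members. Relative to the other libraries, the median log2 pileup on chromosome 15 was 0.12 and 0.055 in the FAK-kd libraries and −0.066 and −0.058 in FAK-/-. On chromosome 10 it was 0.14 and 0.11 in FAK-nls and −0.073 and −0.094 in FAK-WT, and on chromosome 13 it was 0.13 and 0.10 in FAK-nls and −0.029 and −0.065 in FAK-WT. In each of these pairs both libraries of the line had the same sign, as did the FAK-/- libraries on chromosome 7, at 0.13 and 0.14. Other pairs did not, such as FAK-WT on chromosome 15 at −0.033 and 0.025, and FAK-WT on chromosome X at 0.11 and −0.037. Fold enrichment, which divides by the local background, moved by at most 0.057 in any library and chromosome.

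Across 20 chromosomes the log2 ratio of the directions and the pileup difference between the sides had a Pearson r of 0.82 and a Spearman rho of 0.74, given as a description because the chromosomes share the same 8 libraries. When peaks were ranked by fold enrichment in place of −log10 p, the ratio on chromosome 15 was 1.79, that on chromosome 10 was 0.646 and that on chromosome 13 was 0.663, all nearer to the genome-wide 1.13. Other chromosomes moved away from it, such as X from 1.90 to 2.81, chromosome 16 from 1.67 to 2.12 and chromosome 3 from 0.863 to 0.643. Of the nuclear-competent members 63.4% were found again under this ranking, as were 53.3% of the lacking-side members, and 0 changed direction. Without the 5 chromosomes on which any library stood over 0.1 from the others (7, 10, 13, 15 and X), a setting chosen after seeing the data, 973 and 838 members were left and their sum was 1.14 times the mean of the other divisions. The part of chromosome copy number in these counts was not tested.

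**Figure D5:**
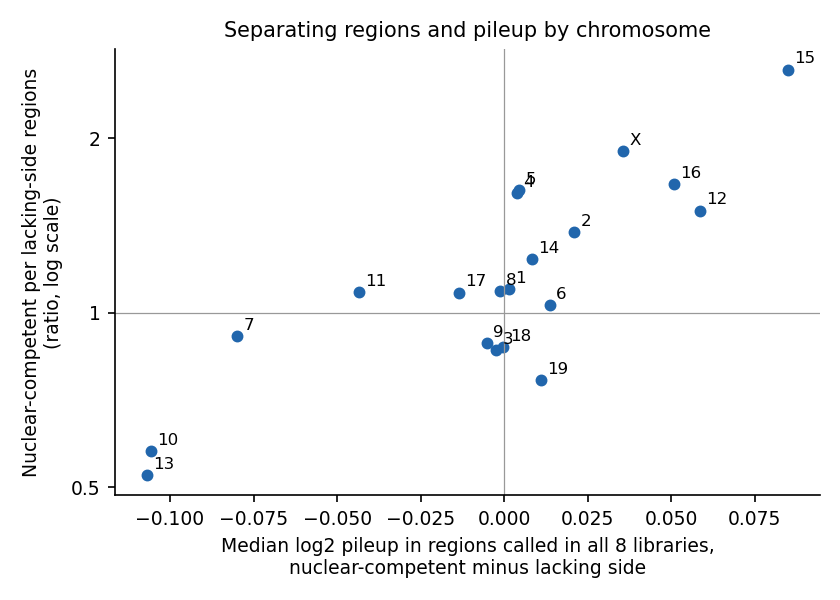
Ratio of nuclear-competent to lacking-side regions on each chromosome (vertical axis, log scale) against the difference between the sides in median log2 pileup of regions called in all 8 libraries (horizontal axis). Chromosomes 10 and 13 are low on both axes and chromosome 15 is high on both, with ratios of 0.578, 0.525 and 2.62.

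Members were also read against genes. Of 14137 protein-coding genes with any region in the gene or the 10 kb upstream of it, 5.51% had a nuclear-competent member and 6.2% a lacking-side member, and 81 genes had both. Long genes hold more regions and so have more chances of a member. Among 23 genes of nuclear FAK partners and targets, 21 had a region, of which 3 had a nuclear-competent member (*Cxcl10*, *Runx1* and *Trp53*) and 3 a lacking-side member (*Mbd2*, *Mef2c* and *Runx1*). *Runx1*, a transcription factor gene, stood in both, and a run of 4 nuclear-competent members was nearest to it (chr16:92825839-92980336, 12 regions in the span). Its lacking-side member (chr16:92710145-92710656) was called with a −log10 p of 7.18 in FAK-/- replicate 1, 4.51 and 4.96 in FAK-nls and 8.65 in FAK-WT replicate 2. The list thus had as many genes with a member in one direction as in the other.

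At *Cxcl10* the promoter region printed above (chr5:92348755-92349129) had a −log10 p of 10.4 and 5.94 in FAK-WT and 6.93 in FAK-kd replicate 2, with no peak in FAK-kd replicate 1. FAK-/- had weaker peaks of 5.51 and 4.16 and FAK-nls had none. The FAK-/- replicate 1 value was thus close to that of FAK-WT replicate 2. *Cxcl10* was the only one of 10 genes named for this study's questions with a member, since *Il33*, *Jun*, *Fosl1*, *Fosl2*, *Ccl5*, *Cdkn1a*, *Vcam1* and *Ptk2* had regions but 0 members, and *Igfbp3* had 0 regions. For *Il33*, the authors reported enhancer and promoter peaks in FAK-WT that FAK-kd and FAK-nls lacked and that were reduced in FAK-/-. A region called in FAK-WT alone cannot reach 3 calls on a side that also holds FAK-kd. The 0 members at *Il33* therefore do not bear on that report. *Trp53*, the p53 gene, had a promoter member (chr11:69581324-69581691) with 11.1 in FAK-WT replicate 1, 5.68 and 9.75 in FAK-kd and 6.83 in FAK-/- replicate 1, and no peak in FAK-WT replicate 2.

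Of 20 cytokine and chemokine genes with a region, 3 had a nuclear-competent member (*Cx3cl1*, *Cxcl1* and *Cxcl10*) and 1 a lacking-side member (*Tgfb1*). These are 15% and 5%, against 5.51% and 6.2% of all genes. The *Cxcl1* region was also called in FAK-nls replicate 1, at a −log10 p of 6.37. The *Cx3cl1* promoter region (chr8:94772011-94772418) had 9.74 in FAK-WT replicate 1 and 7.74 and 8.81 in FAK-kd, with 4.10 in FAK-WT replicate 2 below its cut, and was also called in FAK-nls replicate 1 at 6.07. Of 19 AP-1 family genes with a region, 4 had a nuclear-competent member (21.1%, against 5.51% of all genes) and 0 a lacking-side member. These were *Atf3*, a stress-induced factor, *Bach1*, *Mafk* and *Nfe2l2*, of which the last 3 act on antioxidant genes through small Maf dimers, and none was a *Fos* or *Jun* gene. The *Bach1* and *Mafk* regions were also called in FAK-nls replicate 2 and the *Nfe2l2* region in FAK-/- replicate 1. The *Atf3* region (chr1:191189640-191190277) had 9.74 and 5.72 in FAK-WT and 7.36 in FAK-kd replicate 2, and 4.74, 5.04 and 3.82 in FAK-kd replicate 1 and the FAK-/- libraries, which were under their cuts. No test was run on the lists, and 4 genes are few.

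Of 36 focal adhesion and integrin genes with a region, 0 had a nuclear-competent member and 3 a lacking-side member (*Itgb5*, *Lpp* and *Tln1*; 8.33%), against 5.51% and 6.2% of all genes. These genes held 203 regions. Calls in all 8 libraries made up 64 of those, beside 13172 of all 40309 regions. The *Tln1* region, in an intron of talin, which joins integrins to actin (chr4:43558697-43559239), had 6.25 and 5.57 in FAK-/- and 5.19 and 5.36 in FAK-nls, and was also called in FAK-kd replicate 1 at 6.81. Of 23 mesenchymal genes with a region, 3 had a nuclear-competent member (*Col1a1*, *Sparc* and *Tnc*, all genes of matrix proteins) and 0 a lacking-side member. The *Sparc* region (chr11:55414328-55414818) had 8.38 and 6.82 in FAK-WT and 8.91 in FAK-kd replicate 2 and no peak in FAK-kd replicate 1, against 4.10 in FAK-/- replicate 1 and 3.69 in FAK-nls replicate 2. At *Tnc*, the tenascin C gene (chr4:64046779-64048325), the calling libraries were FAK-WT replicate 1 at 8.68 and FAK-kd at 5.17 and 8.33, with 5.88 in FAK-/- replicate 1 above one of them.

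The other lists are given by their counts, which are too small to read against the 5.51% and 6.2% of all genes. The BAF remodelling genes had 1 nuclear-competent member gene of 19 (*Arid1a*) and 0 on the lacking side. The ETS family had 1 of 19 in each direction (*Erg* and *Ets2*), and antigen presentation genes had *Nlrc5* on the nuclear-competent side and *Cd274*, which encodes PD-L1, on the lacking side of 12. This region, a promoter of both *Cd274* and *Plgrkt* and nearest to the start of *Plgrkt* (chr19:29367144-29367681), had 7.40 and 6.28 in FAK-/- and 5.76 in FAK-nls replicate 1, and peaks from 4.53 to 6.46 in the 4 nuclear-competent lists that were not among their strongest, so the raw values overlap. YAP and TEAD genes had *Tead1* on the nuclear-competent side and *Lats2* and *Vgll4* on the lacking side of 14 (7.14% and 14.3%). Of 10 housekeeping genes 1 had a nuclear-competent member (*Tubb5*), of 6 fibroblast markers 1 had one and 1 had a lacking-side member (*Col1a1* and *Lum*, 16.7% each), of 5 immune markers 1 had a nuclear-competent member (*Ptprc*, 20%) and of 3 endothelial markers with a region 0 had either.

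Regions called in all 8 libraries are not members and allowed a test of strength between the same sides. Over 13172 such regions the log2 fold enrichment of the strongest peak was compared with limma. This fit counted the libraries of a line as separate samples. No region passed an adjusted p of 0.05 (0% called), 964 had an unadjusted p under 0.05 (7.32%), and the smallest adjusted p was 0.0817. Of these 964, 539 were higher on the nuclear-competent side and 425 lower. The difference lay within 0.5 on the log2 scale in 99.9% of the regions, with a median SE of 0.11. In the other divisions that keep lines together, the same fit also called 0 regions. FAK-WT with FAK-nls against the rest gave 894 regions with an unadjusted limma p under 0.05, and FAK-WT with FAK-/- gave 1152. The 964 regions of the nuclear division lay between these numbers. Shared accessible regions therefore gave no call for either side by this test.

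The region with the smallest p was an intron of *P3h2*, a collagen prolyl hydroxylase (chr16:26064936-26065613). Its log2 fold enrichment was 3.21 and 2.63 in FAK-WT, 3.05 and 3.29 in FAK-kd, 2.39 and 2.33 in FAK-/- and 2.14 and 2.14 in FAK-nls. The groups did not overlap, and the difference was 0.79 ± 0.13 (SE, limma adjusted p = 0.0817, n = 4 libraries a side). FAK-WT replicate 2 had the lowest nuclear-competent value here. Without it *P3h2* was the only region called, with a difference of 0.93 and a limma adjusted p of 0.00319. Leaving out each of the other 7 libraries in turn called 0 regions (smallest limma adjusted p from 0.125 to 0.610). The other regions higher on the nuclear-competent side by smallest p were near *Mns1*, *Pax3*, *Adgra3* and *Mrps17*, with differences from 0.45 to 0.56 and limma adjusted p of 0.287 to 0.288. The regions lower there lay at the *Tbx18* promoter, in an intron of *Spata16*, and in introns of *Psmb7*, *Nedd4l* and *Daam1*. At *Tbx18*, a developmental transcription factor gene (chr9:87729563-87731705), log2 fold enrichment was 1.72 and 1.76 in FAK-WT and 1.84 and 1.59 in FAK-kd, against 2.18 and 2.14 in FAK-/- and 2.37 and 2.35 in FAK-nls. This difference of −0.53 ± 0.10 (SE) had a limma adjusted p of 0.254.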

How the data were processed

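ATAC-seq libraries of 4 SCC lines, 2 per line, were grouped by their labels. The authors aligned reads to mm10 with the bcbio pipeline and called broad peaks in each library with MACS2 (version 2.1.1 per the submitters' processing notes). The deposited lists give for each peak the pileup (coverage signal), −log10 p-value, fold enrichment (a ratio to local background) and −log10 q-value. They hold no read counts, so the strength of a call was used only as a rank or value within a library.

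Between 15 and 25 peaks per library outside chromosomes 1 to 19, X and Y were left out. Peaks overlapping by at least 1 bp were merged. Genes came from GENCODE vM21 and sequence from GRCm38.p6 (the build of mm10), searched in the central 500 bp on both strands. Counts and shares were tested by exact permutation over 35 divisions with Benjamini-Hochberg adjustment over 9 features. Libraries of one line are not independent of their line, so these p-values describe these 8 libraries. Shared regions were tested with limma 3.58.1 (quantile-normalized log2 of the deposited fold enrichment, Benjamini-Hochberg adjustment). That fit had the side as its only term and counted libraries of a line as separate, so its SE and p also describe these 8 libraries. Scripts were tested on simulated data and run in Python 3.11.15 and R 4.3.3.

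Named regions were, per direction, the 10 strictest (called in 4 and 0 libraries) by worst rank, the 10 such promoter regions, all members at 10 study genes, up to 4 genes per list and the 5 shared regions with the smallest p. The text also names runs of at least 4 members and genes with 5 members. Members, lists and tests were chosen with earlier results of these data known. Some named regions and 1 gene list are not reported here. Alternative settings are given at the end.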

Additional observations from a re-analysis of the deposited data

Results flagged for a closer look

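Each of 75 sets of 4 libraries of one side was searched for a library far from the other 3 (Dixon's test at the 95% level), and chance alone gives about 1 in 20. There were 3 such values, each the −log10 p of a strict member. At the *Arhgef2* promoter FAK-WT replicate 1 stood at 12.9, above the 6.10 to 6.82 of the other nuclear-competent libraries. At the region chr1:194238516-194239019, whose nearest gene is *Plxna2*, FAK-nls replicate 2 stood at 5.48, below the 9.42 to 9.91 of the other lacking-side libraries. At the *Wdr26* promoter FAK-nls replicate 1 stood at 4.82, below the 6.67 to 6.80 of the others. FAK-WT replicate 1 has the highest cut of the 8 libraries (8.10) and FAK-nls replicate 1 the lowest (3.36).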

How the results depend on the processing

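The number of separating regions was 1.10 to 2.37 times the mean of the other divisions under 12 alternatives and 1.13 to 1.55 times when each replicate was left out in turn, and p stayed between 0.0857 and 0.286. The lowest of these is from the replicate block, which keeps 2 libraries of each replicate number on a side: 1.10 times over 18 divisions (exact permutation p = 0.278). Replicate numbers did not pair the libraries, since differences between replicates 1 and 2 correlated between lines at −0.21 to 0.047. The replicate block left 0 shared regions called by limma.

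The number itself was 5224 with all deposited peaks (4996 nuclear-competent and 228 lacking-side). With a −log10 q of at least 3 it was 4542 (4430 and 112). Unequal list lengths enter both of these. The number was 788 with 0 calls allowed on the other side, 176 with 4 and 0 calls, and 1001 to 1379 without one replicate. Without one replicate, the rule asked for 3 of 3 calls on the shortened side. Regions of the other direction were then allowed 0 calls on that shortened side. With regions counted as called only at 50% coverage the directions had 2641 and 738 regions.

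Differences between the directions changed sign in places, and the cause was not tested. With all deposited peaks the AP-1 difference was −0.77 points. With a −log10 q of at least 3, promoter, GC and AP-1 differences were 8.98, 4.12 and −5.26, and at 50% coverage 7.13, 2.39 and −4.49. In members called in 4 and 0 libraries GC was 2.14 and ETS −3.67. GC was 1.00 outside promoters and −2.39 to 0.68 without one replicate, and ETS was −0.033 over whole regions. Other differences kept their sign without one replicate but varied in size. The promoter difference ran from −18.0 to −2.24 points, AP-1 from 1.71 to 16.8 and ETS from 1.37 to 7.06. None of these passed adjustment (lowest adjusted p = 0.257). Leaving out one replicate gave 0 to 1 shared regions called by limma, the 1 being *P3h2*.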

Other observations

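The runs of neighboring members include 7 of at least 4 members of one direction within gaps of 100 kb. The longest had 5 nuclear-competent regions of 8 in 228 kb between genes (chr2:95487652-95715871), far from *Lrrc4c*, the nearest protein-coding gene, and 4 of 10 regions around *Pdgfb*, a growth factor gene, *Mgat3*, *Rpl3* and *Syngr1* were nuclear-competent (chr15:80024310-80170020). On the lacking side, 4 of 12 regions lay near *Ctnnb1*, the beta-catenin gene, and *Ulk4* (chr9:120830472-121016378), 4 of 4 near *Gfod1* and *Sirt5* (chr13:43306539-43380602) and 4 of 13 at *Atxn1* (chr13:45748635-45966426). None of the 7 spans held a member of the other direction. Chromosomes 13 and 15 are among those with the pileup shifts given above, and the part of these shifts in the runs was not tested.

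Of the strict lacking-side members, 2 had no deposited peak in the 4 nuclear-competent libraries, and they were picked out after their values were seen. The one near *Naaladl2* (chr3:25326752-25327412) had a −log10 p of 7.12 and 6.59 in FAK-/- and 6.02 and 7.26 in FAK-nls. The one near *4930544G11Rik* (chr6:66121576-66122168) had 6.69 and 10.6 in FAK-/- and 7.78 and 9.26 in FAK-nls. A strict nuclear-competent member without any peak on the other side also lay in an intron of *Naaladl2* (chr3:24665414-24665826), with 11.9 and 5.99 in FAK-WT and 6.70 and 7.92 in FAK-kd. The strict nuclear-competent members of this kind numbered 15 and included introns of *Alk*, a receptor kinase gene, and *Stk3*, a Hippo pathway kinase gene, and a region upstream of *Lox*, the lysyl oxidase gene. Neither FAK-nls list reaches far below its cut, so these 15 rest mainly on the FAK-/- lists.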
